A study of Mus musculus with 19 samples.

Results

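The SMAD genes were followed through mRNA-seq of the vomeronasal organ (VNO), the nasal organ that detects pheromones, in mice in which Cre recombinase was used to remove Smad4. SMAD proteins carry TGFβ, activin and BMP signals from the cell surface receptors to the nucleus. The receptors phosphorylate the receptor-regulated SMADs, which are Smad1, Smad5 and Smad9 for BMPs and Smad2 and Smad3 for TGFβ and activins. These then bind the shared partner Smad4 and regulate transcription, while the inhibitory Smad6 and Smad7 are transcribed in response to the pathway and dampen it. The set holds all 8 genes with a SMAD symbol, of 35596 genes in the files. It was chosen by name, with earlier results of these data known. The 8 genes have 38 transcripts in the files, of which 6 belong to Smad4.

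Each library came from dissected whole VNOs of female mice at postnatal day 21, and 18 libraries fall into 6 groups of 3. The AP-2εCre line comprised Smad4flox/flox controls that carry no Cre, AP-2εCre+/- heterozygous controls and AP-2εCre+/-/Smad4flox/flox conditional knockouts (cKO). The OMPCre line comprised Smad4flox/flox controls, OMPCre+/- heterozygous controls and OMPCre+/-/Smad4flox/flox cKO. The sample labels, and in places the text of the study, name both Smad4flox/flox groups wild type. The study's transcriptome methods give Smad4flox/flox, the name used here, and no value in these files settles which it was. AP-2εCre acts in immature vomeronasal sensory neurons (VSNs) of the basal kind and OMPCre in mature VSNs, both apical and basal. The whole organ also holds glands, supporting cells, vessels and glia, and these files do not resolve Smad4 by cell type. A 19th library, titled as an AP-2εCre heterozygote and given the genotype of a cKO, entered no comparison. The labels call the libraries biological replicates, and no source states whether organs were pooled.

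Levels of one gene across libraries are given as CPM, the count estimated by the authors' software, summed over the gene's transcripts and scaled to a library of 1000000 counts with TMM normalization. Differences are log2 fold changes from edgeR's quasi-likelihood test, with their standard error (SE), and a gene was called at a Benjamini-Hochberg adjusted p under 0.05. Total estimated counts ran from 43385516 to 134042284 per library, so that even Smad6, the member with the lowest CPM, was measured in every library. All 8 members passed the filter on low counts in every comparison. The markers of mature VSNs, Omp and Trpc2, were above 1 CPM in every library, as were the 3 apical and the 3 basal markers. Markers of glands, vessels, glia and immune cells were present too, as in a whole organ.

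Smad4, the targeted gene, spans 73639009 to 73703780 on the minus strand of chromosome 18 (GRCm38; ENSMUSG00000024515.13). In the AP-2εCre line its level was 81.0, 70.5 and 39.6 CPM in the 3 Smad4flox/flox libraries. It was 43.9, 79.7 and 41.5 CPM in the heterozygotes, and 66.1, 66.5 and 33.8 CPM in the cKO. Each of these 3 groups thus held both low and high libraries, and the cKO lay inside the range of the controls but for its lowest library. The mean was 55.5 ± 18.8 CPM (SD, n = 3) in the cKO and 59.4 ± 19.8 CPM (n = 6) in the controls. The log2 fold change was -0.09 (SE 0.30, 95% interval -0.76 to 0.57, adjusted p = 0.955 by edgeR's quasi-likelihood test), and the two-sided exact permutation test of the mean log2(CPM + 1) gave p = 0.833. The interval runs from a change of -40.9% to one of 48.9%, so a moderate loss or gain of Smad4 mRNA in the whole organ was not detectable here. The sign itself was not stable, at 0.02 against the heterozygotes alone, 0.23 on the deposited TPM (limma; median over all genes 0.21), and 0.02, 0.01 and 0.17 without Smad4flox/flox replicate 1, heterozygote replicate 2 or cKO replicate 3. In that comparison 7 of 18495 genes were called, which is 0.0378%, and none of the 8 SMAD genes was among them.

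In the OMPCre line Smad4 was measured more evenly. Its level was 79.0, 73.4 and 64.8 CPM in Smad4flox/flox, 83.9, 76.3 and 77.6 CPM in the heterozygotes, and 61.9, 62.5 and 54.4 CPM in the cKO. All 3 cKO libraries lay below all 6 controls, at 59.6 ± 4.5 CPM (SD, n = 3) against 75.8 ± 6.4 CPM (n = 6). Of all genes tested, 0.94% had their groups apart in this direction. The log2 fold change was -0.35 (SE 0.09, 95% interval -0.55 to -0.15), a change of -21.3% with an interval from -31.5% to -9.67%. The gene was not called: over 18623 genes its adjusted p was 0.909 in edgeR's quasi-likelihood test and 0.0932 in DESeq2. The study lists Smad4 and Smad2 among genes lower in this cKO than in both kinds of control, without a stated threshold. On the deposited TPM the difference of Smad4 was -0.54 (limma, adjusted p = 1). The groups overlapped on that scale, at 31.1 to 50.7 TPM in the cKO and 41.0 to 71.5 TPM in the controls. The unadjusted p was 0.0032 by edgeR and 0.0119 by the two-sided exact permutation test, the smallest that 84 splits of 3 against 6 libraries can give. edgeR called 0 genes (0%) in this comparison, with 735 genes (3.95%) at an unadjusted p under 0.05, and DESeq2 called 43. Beside this, the summed CPM of Omp and Trpc2 was 325 to 399 in the OMPCre cKO, 348 to 372 in the OMPCre heterozygotes and 390 to 612 in Smad4flox/flox of that line, where Omp is itself the gene that carries Cre. The 3 apical markers summed to 935 to 983 CPM in the cKO and 808 to 896 CPM in the 6 controls, without overlap, and the 3 basal markers to 355 to 403 and 318 to 372 CPM. The part of these differences in the Smad4 level was not tested. In whole organs, a loss of cells that hold the mRNA and less of it per cell cannot be told apart.

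**Figure D1:**
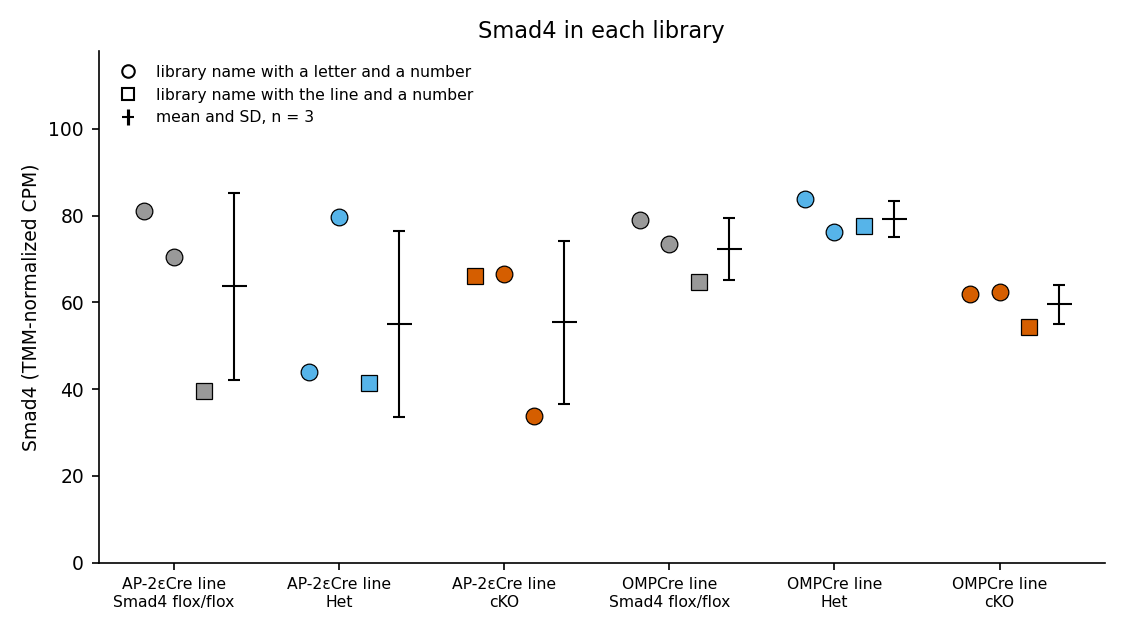
Smad4 in each library (points, TMM-normalized CPM) by group, with group means ± SD (n = 3). The 3 OMPCre cKO libraries, at 54.4 to 62.5 CPM, lie below the 6 OMPCre-line controls at 64.8 to 83.9 CPM, whereas in the AP-2εCre line each group mixes libraries at 43.9 CPM or below with libraries at 66.1 CPM or above.

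The cKO effect on Smad4 was not shown to differ between lines. The interaction over the 18 libraries was -0.25 on the log2 scale (OMPCre minus AP-2εCre, SE 0.34, 95% interval -0.96 to 0.46, adjusted p = 1 by edgeR's quasi-likelihood test). The effect averaged over both lines was -0.22 (SE 0.17, adjusted p = 0.764). edgeR called 0 of 19465 genes (0%) for the interaction, with 956 genes at an unadjusted p under 0.05, and 22 (0.113%) for the average effect. No SMAD gene was called in either.

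The wide interval in the AP-2εCre line goes with a wide spread of Smad4 inside its groups. Ordered by Smad4, 4 of these 9 libraries sat between 33.8 and 43.9 CPM and the other 5 between 66.1 and 81.0 CPM, with an empty stretch of 22.2 CPM between them. The 4 low libraries were 1 Smad4flox/flox, 2 heterozygous and 1 cKO, so that every genotype was represented. Their total counts, 43385516 to 71511460, fell within those of the other 5 libraries at the high end and just below them at the low end (45084153 to 134042284). Within groups of the AP-2εCre line the SD of Smad4 was 0.534 on the log2(CPM + 1) scale, and the median over 2613 genes of like level was 0.139, with 1.95% of those genes above Smad4. For the OMPCre line the same SD was 0.112, below the 0.132 of genes of like level. The other SMAD genes had within-group SDs of at most 0.304 in either line.

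**Figure D2:**
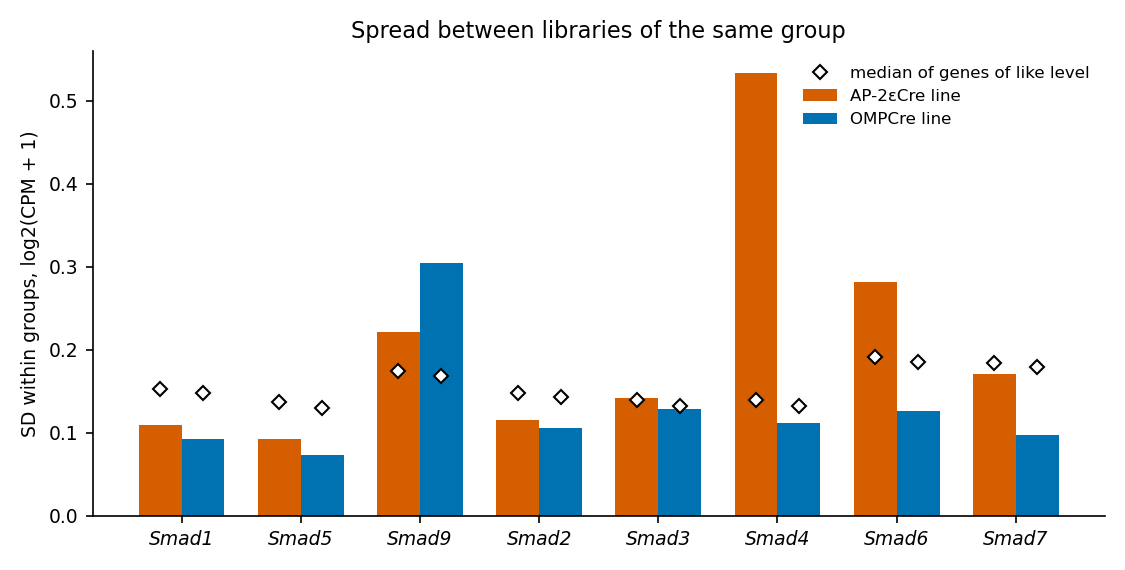
Spread between libraries of the same group for each SMAD gene, as the SD within groups of log2(CPM + 1), for the AP-2εCre line (orange bars) and the OMPCre line (blue bars), with the median SD of genes of like level (diamonds). Smad4 in the AP-2εCre line stands out at 0.534 against a median of 0.139, and Smad9 in the OMPCre line is next at 0.304.

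The names of the libraries take 2 forms, a letter with a number or the name of the line with a number, and each group of 3 holds 2 of the first form and 1 of the second. Within the AP-2εCre line the cKO difference of Smad4 went in opposite directions in these sets. The 2 letter-named cKO libraries averaged 50.2 CPM against 68.8 CPM in 4 controls, and the line-named cKO library had 66.1 CPM against 40.6 CPM in 2 controls. In the OMPCre line the letter-named cKO averaged 62.2 CPM against 78.1 CPM, and the line-named cKO had 54.4 CPM against 71.2 CPM, a lower cKO level in both. The sets were not tested on their own. With the form of the name as a term in the fit, the log2 fold change was -0.03 in the AP-2εCre line and -0.35 in the OMPCre line.

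The genes whose alleles carry Cre were read by genotype label beside Smad4. Tfap2e, the gene of AP-2ε, was at 14.0 to 16.6 CPM in Smad4flox/flox and at 5.4 to 8.9 CPM in the AP-2εCre heterozygotes. It was at 10.0 to 12.5 CPM in the AP-2εCre cKO. Heterozygotes and cKO both carry AP-2εCre, and the gap between their levels was not tested. Omp, which encodes the olfactory marker protein, was at 305 to 474 CPM in the Smad4flox/flox libraries of the OMPCre line, above the 225 to 248 CPM of its heterozygotes and the 238 to 287 CPM of its cKO. Smad4 itself is no check of the deletion in these files. The study read the deletion by in situ hybridization against the floxed exon in the AP-2εCre line and by Smad4 immunostaining in both lines. The study names the floxed exon as exon 8, with a numbering that could not be tied to the annotation. Annotated exon 8 of the main transcript has 51 bases (1.51% of its 3384) and exon 9 has 184 (5.44%), and the deposited estimates cover the transcript as a whole.

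Smad4-201, the full-length coding transcript of 12 exons, held 79.3% of all Smad4 counts, between 72.2% and 86.9% in single libraries. The noncoding transcripts Smad4-205 and Smad4-203, of 917 and 430 bases, held 8.72% and 8.55%. Smad4-204 held 2.94% and had under 1 count in 6 libraries, and Smad4-206 held 0.459% and had under 1 count in 9. Smad4-202, the other coding transcript, was estimated at 0 in all 18 libraries. Reads that several transcripts share are divided by the software, so these shares are estimates whose own error is not in the values.

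The level of Smad4-201 followed that of the gene. In the OMPCre line it was 58.9, 63.7 and 53.9 CPM in Smad4flox/flox, 62.7, 58.4 and 63.9 CPM in the heterozygotes, and 51.7, 53.5 and 44.1 CPM in the cKO. The cKO libraries were the lowest, as were those of 0.574% of all transcripts. The log2 fold change of -0.28 (SE 0.09, unadjusted p = 0.013, where 2.53% of transcripts were under 0.05) was not called among 59367 transcripts by edgeR's quasi-likelihood test (adjusted p = 1; 2 transcripts called, 0.00337%) or by DESeq2 (adjusted p = 0.253). Across the AP-2εCre line Smad4-201 ran from 25.2 to 54.4 CPM in the cKO and from 33.3 to 65.3 CPM in the controls. Its log2 fold change there was -0.15 (SE 0.31, adjusted p = 1 by edgeR's quasi-likelihood test, with 0 of 58883 transcripts called, 0%, and 2850 at an unadjusted p under 0.05; DESeq2 called 634).

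The make-up of Smad4 mRNA did not differ detectably. Smad4-201 made up 76.4 ± 5.31% (SD, n = 3) of Smad4 counts in the AP-2εCre cKO and 80.1 ± 3.68% (n = 6) in the controls, with p = 0.310 by the two-sided exact permutation test. The OMPCre shares were 83.4 ± 2.38% (n = 3) and 79.7 ± 5.15% (n = 6), with p = 0.321 by the same exact test. The share was thus lower in the cKO in one line and higher in the other, within the spread of the libraries.

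**Figure D3:**
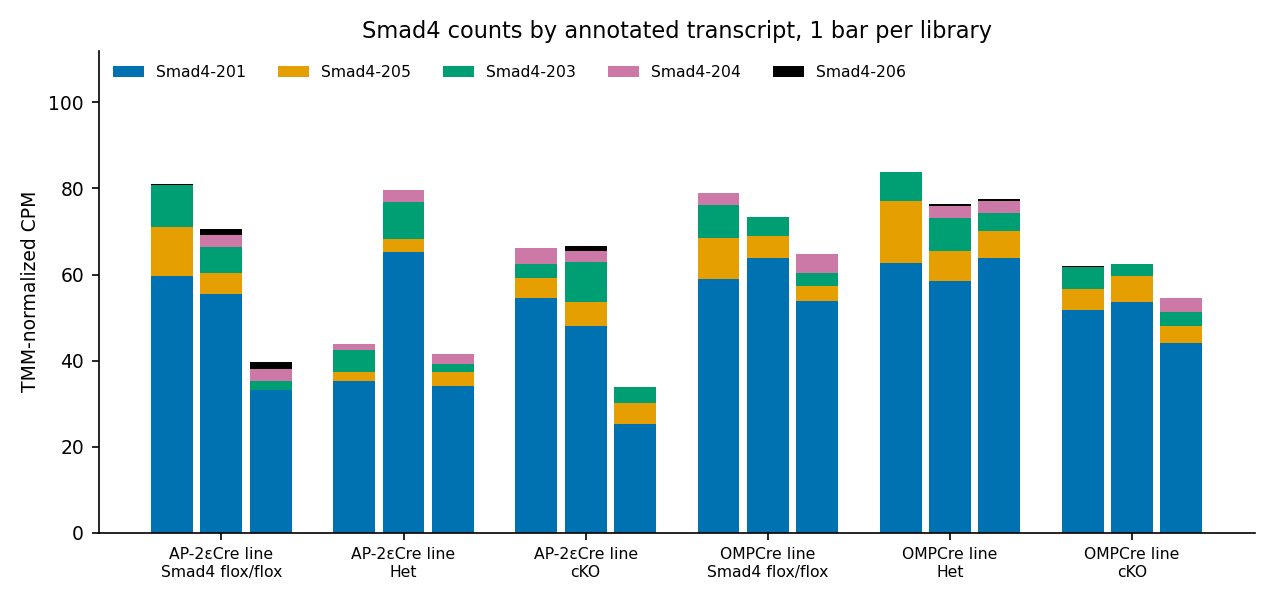
Smad4 in each of the 18 libraries as stacked CPM of its transcripts, ordered by group. Smad4-201 makes up 72.2% to 86.9% of every bar, and Smad4-205 and Smad4-203 most of the rest.

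None of the BMP receptor-regulated SMADs was called in a comparison. Over the 18 libraries Smad1 (chromosome 8, 79338395 to 79399518) had 30.7 ± 2.3 CPM (SD), with a range of 27.2 to 35.8. Smad5 (chromosome 13, 56703010 to 56742377) had 74.2 ± 5.1 CPM, from 66.5 to 86.3, and Smad9 (chromosome 3, 54755582 to 54801257), the least abundant of them, had 16.7 ± 3.1 CPM, from 12.2 to 25.1. Their cKO differences were near 0 for Smad1, at 0.00 (SE 0.09) in the AP-2εCre line and 0.04 (SE 0.09) in the OMPCre line, and for Smad5, at -0.05 (SE 0.09) and -0.04 (SE 0.06). Smad9 had log2 fold changes of 0.20 (SE 0.14) and 0.06 (SE 0.19). Its single libraries spread widely, at 21.8, 16.7 and 13.7 CPM in the AP-2εCre cKO and 12.2, 16.1 and 25.1 CPM in the OMPCre heterozygotes, and these ranges overlapped those of the other groups.

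The TGFβ and activin receptor-regulated SMADs did not pass the test either. Smad2 (chromosome 18, 76241580 to 76310963) had 37.6 ± 3.3 CPM over the 18 libraries and Smad3 (chromosome 9, 63646767 to 63757994) had 59.2 ± 6.0 CPM. Smad2 was at 33.5, 36.4 and 36.4 CPM in the OMPCre cKO and at 33.8 to 42.4 CPM in the controls, overlapping at the low end, with a log2 fold change of -0.14 (SE 0.08). Its difference in the AP-2εCre cKO was -0.00 (SE 0.10). Smad3 was at 68.6, 66.1 and 60.0 CPM in the AP-2εCre cKO and between 49.8 and 65.3 CPM in the controls, so that 2 of the 3 cKO libraries exceeded every control, with a log2 fold change of 0.12 (SE 0.10). The size depended on the scale. On the deposited TPM, Smad3 was at 35.2 (31.2 to 39.6) in the AP-2εCre cKO and 24.4 (18.4 to 28.9) in the controls, with no overlap, as had 8.84% of all genes in that direction on TPM. The difference was then 0.52 (SE 0.16) on the log2(TPM + 1) scale, with an adjusted p of 0.187 by limma. Over all genes the median on that scale was 0.21, as given for Smad4, and 81.2% of genes were higher. The OMPCre cKO differed in Smad3 by 0.10 (SE 0.10) on counts and by -0.15 (SE 0.21) on TPM.

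The inhibitory SMADs were not called either. Smad6 (chromosome 9, 63953076 to 64022059) had 11.5 ± 1.7 CPM and Smad7 (chromosome 18, 75367529 to 75395935) had 13.3 ± 1.2 CPM over the 18 libraries. The log2 fold changes of Smad6 were 0.08 (SE 0.19) in the AP-2εCre cKO and -0.03 (SE 0.11) in the OMPCre cKO, and those of Smad7 were 0.07 (SE 0.12) and 0.05 (SE 0.09). Over the 7 members other than Smad4, the 95% intervals of the cKO effect stayed between -0.34 and 0.52 in the AP-2εCre line and between -0.37 and 0.48 in the OMPCre line. The AP-2εCre intervals of Smad6 and Smad9 still hold levels 41.1% and 43.2% higher, and a p that misses the threshold does not show equal levels.

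**Figure D4:**
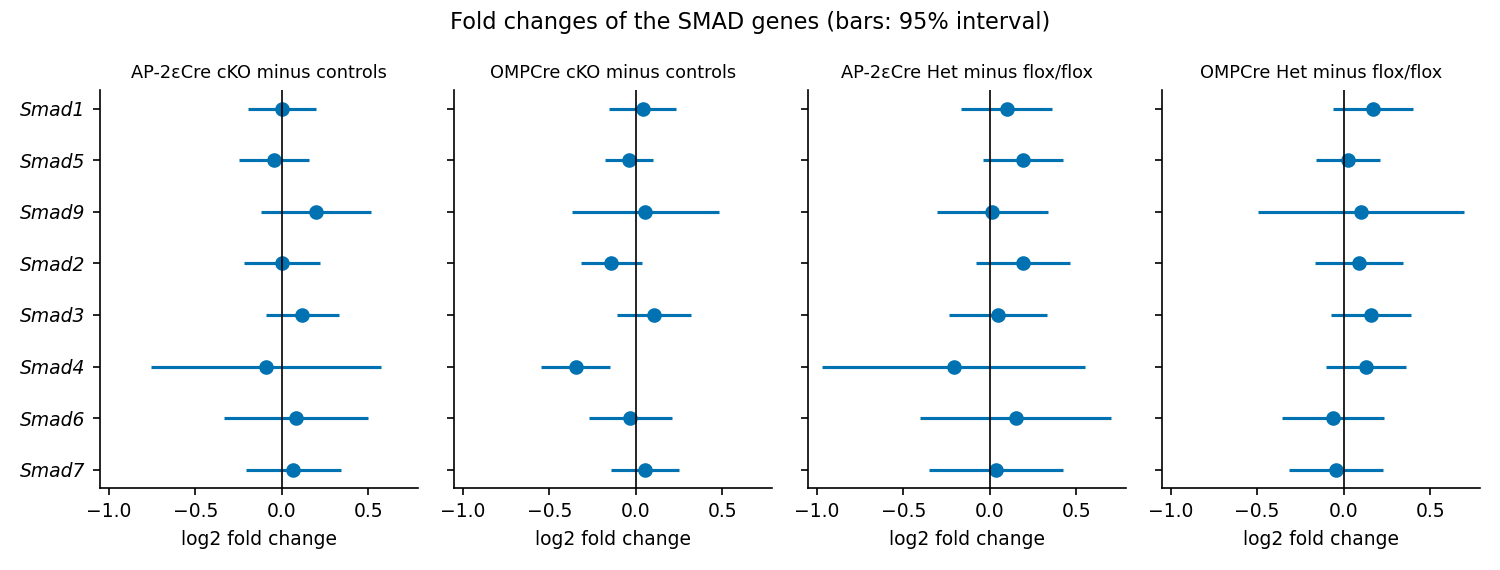
Log2 fold change of each SMAD gene in cKO against the 6 controls of its line, with 95% intervals from edgeR. Only the interval of Smad4 in the OMPCre line, -0.55 to -0.15, leaves out 0, and no member passed the adjusted threshold.

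As a group, 5 of the 8 members had a positive log2 fold change in the AP-2εCre cKO and 4 of 8 in the OMPCre cKO. Their medians were 0.034 and 0.004, beside 0.003 and -0.005 over all genes tested. In the OMPCre cKO 1 member, Smad4, was at an unadjusted p under 0.05, where 3.95% of all genes were. In the AP-2εCre cKO there was none, where 10.2% of all genes were.

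The members were also compared between the kinds of control, as heterozygotes minus Smad4flox/flox. By the study's methods these groups differ in Cre and in the floxed Smad4 alleles together, and the effects cannot be told apart here. For Smad4 the difference was -0.21 (SE 0.33, 95% interval -0.97 to 0.55) in the AP-2εCre line and 0.13 (SE 0.10, 95% interval -0.10 to 0.36) in the OMPCre line. The exact permutation test gave p = 0.9 and p = 0.3, two-sided, where 20 splits of 3 against 3 cannot go below 0.1. No member was called among the 4 of 17827 genes (0.0224%) and the 8 of 18124 genes (0.0441%) that were. Smad1 was the one member whose OMPCre-line groups stood apart, at 35.8, 31.3 and 31.2 CPM in the heterozygotes and 30.8, 27.8 and 28.8 CPM in Smad4flox/flox, as did 6.52% of all genes in that direction. Its log2 fold change was 0.17 (SE 0.10, adjusted p = 0.892 by edgeR's quasi-likelihood test). The AP-2εCre heterozygotes had the higher mean of Smad5, by 0.19 (SE 0.10), and of Smad2, by 0.19 (SE 0.12). Marker sums differed between these controls too. The 3 basal markers summed to 212 to 298 CPM in the AP-2εCre heterozygotes and 340 to 394 CPM in Smad4flox/flox of that line, without overlap. Among OMPCre-line controls, the 3 apical markers summed to 842 to 896 CPM in the heterozygotes and 808 to 824 CPM in Smad4flox/flox, and the 2 mature markers to 348 to 372 and 390 to 612 CPM. Omp, a mature marker, carries Cre in the OMPCre line, and Tfap2e, a basal marker, carries it in the AP-2εCre line. The part of the marker sums in these differences was not tested.

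Between the lines, the controls of the OMPCre line had 75.8 CPM of Smad4 and those of the AP-2εCre line 59.4 CPM. The log2 difference was 0.36 (SE 0.18, 95% interval -0.04 to 0.75, adjusted p = 0.769 by edgeR's quasi-likelihood test, with 17 of 17912 genes called, 0.0949%). The two-sided exact permutation test over all splits of 6 against 6 gave p = 0.11. The 7 other members differed by -0.11 to 0.19 and none was called.

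**Figure D5:**
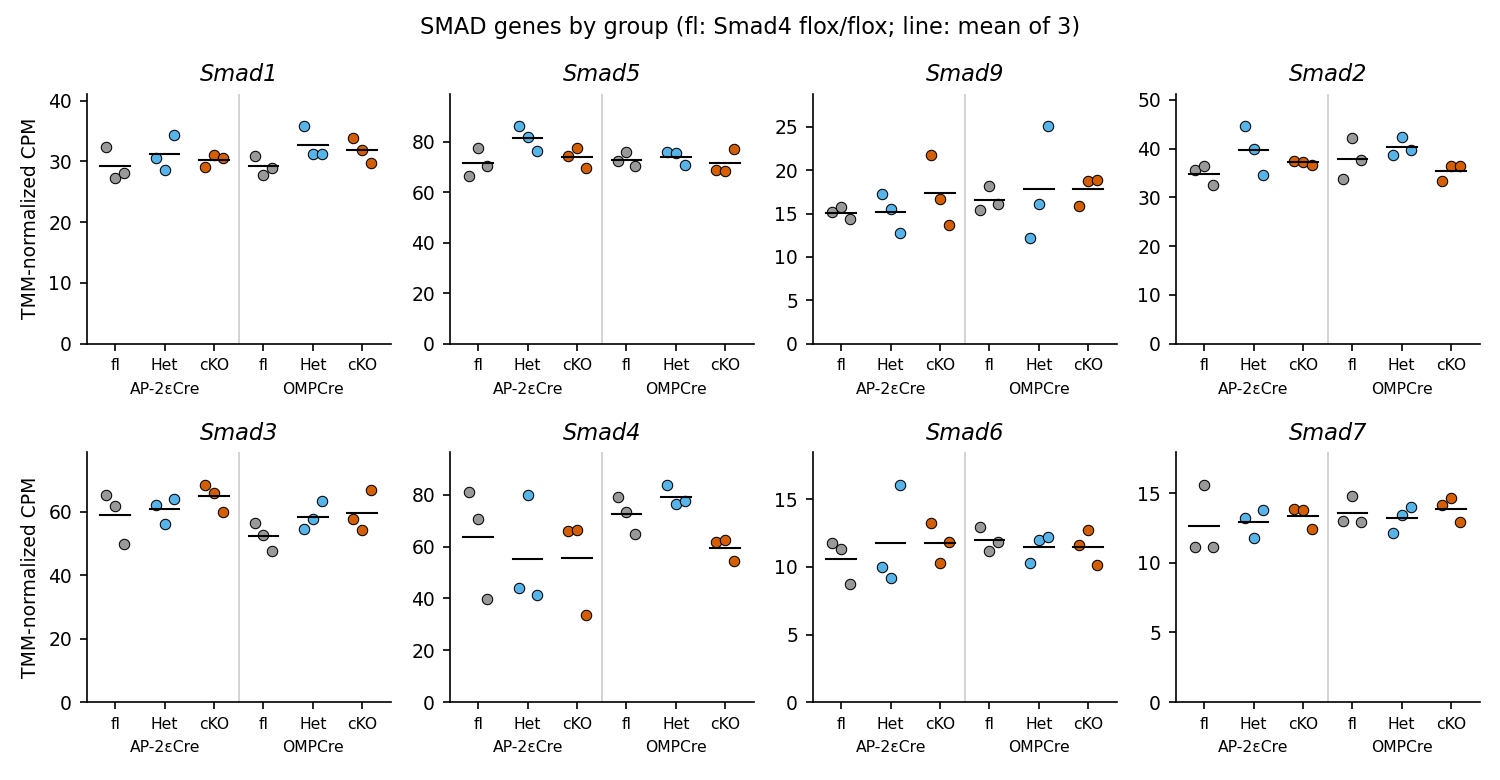
TMM-normalized CPM of the 8 SMAD genes in each library (points) of the 6 groups, with a bar at each group mean. For the 7 members other than Smad4 each cKO overlaps the controls of its line, and Smad1 in the OMPCre line is higher in all 3 heterozygotes (31.2 to 35.8 CPM) than in Smad4flox/flox (27.8 to 30.8 CPM).

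Levels of different genes can be compared only per length, for which the deposited TPM, summed over each gene's transcripts, was used in the 12 control libraries. The mean TPM was 53.8 for Smad4, 25.9 for Smad3, 15.4 for Smad2, 13.0 for Smad5, 10.7 for Smad1, 3.46 for Smad6, 3.38 for Smad7 and 2.64 for Smad9. Smad4 exceeded Smad3, and Smad3 exceeded Smad2, in 12 of 12 libraries (adjusted p = 0.00114 for each, two-sided exact sign-flip permutation test over the 7 neighbouring pairs). Smad1 exceeded Smad6 with the same adjusted p, and Smad7 exceeded Smad9 in 9 of 12 libraries (adjusted p = 0.0205, same exact test). Smad2, Smad5 and Smad1 were not told apart as neighbours (adjusted p = 0.0900 for each pair, same exact test), nor were Smad6 and Smad7 (adjusted p = 0.633). For Smad2 and Smad5 this changed with all 18 libraries (adjusted p = 0.0240) and without AP-2εCre heterozygote replicate 3 (adjusted p = 0.0308), and for Smad5 and Smad1 without Smad4flox/flox replicate 1 of that line (adjusted p = 0.0103), by the same permutation test, exact except for the 18 libraries.

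The first place of Smad4 in that order held on other scales, but its distance to the rest did not. Smad4-203, of 430 bases, held on average 44.6% of the TPM of Smad4 (28.7% to 59.9%) and Smad4-201 26.5%. Divided by the length of the gene's longest transcript instead, Smad4 had 19.97 CPM per kilobase, Smad5 11.4, Smad3 11.3, Smad1 8.10, Smad2 4.72, Smad6 3.86, Smad7 3.06 and Smad9 3.01. Smad4 then exceeded Smad5 in 11 of 12 libraries (adjusted p = 0.00171, exact sign-flip permutation test). Other neighbours changed with the scale. Per kilobase Smad1 exceeded Smad2, and Smad6 exceeded Smad7, in 12 of 12 libraries (adjusted p = 0.00114 for each, same exact test), while Smad7 exceeded Smad9 in only 7 of 12 (adjusted p = 0.714). By the TPM of the leading transcript alone, a scale chosen after the data were seen, Smad4-201 had 14.1, Smad5-201 9.45, Smad3-201 9.04 and Smad1-202 8.32, and Smad9-201 with 2.64 lay above Smad7-201 with 2.43. Smad2 had the lowest value on that scale, 2.13 TPM for Smad2-205, the transcript that led by counts, whereas Smad2-207 and Smad2-201 had 6.23 and 4.62 TPM. It is the member whose counts were spread most over several transcripts.

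The leading transcript held 93.5% of the counts of Smad1 (Smad1-202), 96.7% of Smad5, 92.3% of Smad3 and 88.7% of Smad7. All counts of Smad6 went to Smad6-201, and Smad9 has 1 transcript. In Smad2 the shares were 53.7% for Smad2-205 and 30.6% for Smad2-201, both coding. The share of Smad7-201 was 80.2% in the AP-2εCre cKO and 92.1% in its controls, with p = 0.0952 by the two-sided exact permutation test.

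After the mean of each group was subtracted, the correlation of Smad4 with the 7 other members over 18 libraries ran from r = -0.03 to 0.35. Over all 28 pairs of members none passed an adjusted p of 0.05, the lowest being 0.342 for Pearson's r and 0.240 for Spearman's rho by permutation. The points share their library and its depth. By Pearson's r the pair farthest from 0 was Smad1 and Smad9, with r = -0.58 and rho = -0.61 (unadjusted permutation p = 0.0175 for r), and r was -0.62 without the 2 libraries farthest from the median. By rho it was Smad2 and Smad9, with rho = 0.63 and r = 0.45, and r was 0.62 without 2 such libraries.

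Genes whose level was most like that of Smad4 were sought in the same way among 15838 genes with a mean of at least 1 CPM, as a description over 18 libraries. High r were those of Gm14295 (0.81), Rmdn2 (0.81), Ints10 (0.79), a subunit of the Integrator complex and Hbb-bt (0.76), an adult β-globin. The lowest were those of Fam181b (-0.82), Lrpprc (-0.80), a mitochondrial RNA-binding protein, Gm5537 (-0.79), Mctp2 (-0.79) and Cth (-0.76), the cystathionine γ-lyase. These rest on the AP-2εCre line, where Smad4 varied most. There Gm5537 was at 0, 5.13, 0 and 0.66 CPM in Smad4flox/flox replicates 1 and 2, heterozygote replicate 2 and cKO replicate 2. In all others of the 18 libraries it was at 37.6 CPM or above. Within the 9 OMPCre libraries only Rmdn2 (0.72) and Hbb-bt (0.73) had a like r, and those of the other 7 named lay between -0.27 and 0.34.

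The genes next to Smad4 on chromosome 18 were not called in any comparison. Mex3c, 46434 bases away on one side and coding for an RNA-binding ubiquitin ligase, had cKO differences of 0.05 (SE 0.10) in the AP-2εCre line and -0.02 (SE 0.07) in the OMPCre line. Elac1, 31258 bases away on the other side and coding for a tRNA-processing nuclease, had -0.06 (SE 0.08) and -0.01 (SE 0.16). Between heterozygotes and Smad4flox/flox, Mex3c differed by 0.23 (SE 0.09, adjusted p = 0.931 by edgeR's quasi-likelihood test) in the AP-2εCre line and Elac1 by 0.33 (SE 0.15, adjusted p = 0.880) in the OMPCre line. Smad7 and Smad2 lie 1.66 and 2.54 Mb from Smad4, on the same chromosome as the floxed allele.

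Proteins that act on SMADs were read from a list of 29 genes, of which 28 could be tested. Foxh1, a DNA-binding partner of Smad2, was at or below 0.154 CPM in every library and was left out. None of the 28 was called in any comparison. At an unadjusted p under 0.05, 1 was higher and 0 were lower in each cKO, and it was Zfp423, a zinc finger protein that binds DNA with SMADs in the BMP response. Of all genes, 4.18% were higher and 6.04% lower at that level in the AP-2εCre cKO, and 2.06% and 1.88% in the OMPCre cKO, so 1 of 28 is near the background. In the AP-2εCre line Zfp423 had 21.9 to 23.3 CPM in the cKO and 13.5 to 19.9 CPM in the controls, with no overlap, as had 2.21% of all genes in that direction. Its log2 fold change was 0.47 (SE 0.13, adjusted p = 0.316 by edgeR's quasi-likelihood test), and in the OMPCre line, where the groups overlapped, 0.30 (SE 0.12, adjusted p = 1). Averaged over both lines it was 0.38 (SE 0.09, adjusted p = 0.152). Ski, a co-repressor, had 0.20 (SE 0.09) and Trim33, a ubiquitin ligase of Smad4, -0.19 (SE 0.09) in the AP-2εCre cKO. The median over the 28 genes was 0.006 in the AP-2εCre cKO and 0.015 in the OMPCre cKO, beside 0.003 and -0.005 over all genes tested.

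Genes known to be transcribed in response to BMP or TGFβ, 12 in all with Smad6 and Smad7 among them, gave 0 calls in any comparison. At an unadjusted p under 0.05, 2 were higher and 0 lower in the AP-2εCre cKO, where 4.18% of all genes were higher and 6.04% lower. In the OMPCre cKO 1 was higher and 1 lower, where 2.06% and 1.88% of all genes were. Pmepa1, which is induced by TGFβ and binds Smad2 and Smad3, was at 63.5 to 80.4 CPM in the AP-2εCre cKO against 48.8 to 60.2 CPM in the controls, with no overlap, as had 2.21% of all genes in that direction. Its log2 fold change was 0.35 (SE 0.10, adjusted p = 0.317 by edgeR's quasi-likelihood test). In the OMPCre line it had 62.3 to 74.6 CPM against 50.8 to 64.6 CPM, a difference of 0.25 (SE 0.08, adjusted p = 1), and the average over both lines was 0.30 (SE 0.07, adjusted p = 0.115).

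Id4, an inhibitor of bHLH factors, was at 29.7 to 34.8 CPM in the OMPCre cKO against 34.4 to 41.4 CPM in the controls (-0.22, SE 0.08, adjusted p = 1 by edgeR's quasi-likelihood test), and the same difference in the AP-2εCre line was -0.21 (SE 0.11). The median over the 12 genes was 0.03 in the AP-2εCre cKO and -0.00 in the OMPCre cKO. In the heterozygotes of the AP-2εCre line, 11 of the 12 had a positive log2 fold change over Smad4flox/flox, with a median of 0.18, where 51.6% of all genes did, with a median of 0.006. The basal markers also differed between these groups, as given above, and their part was not tested. Of the 12, 2 were at an unadjusted p under 0.05, as were 5.18% of all genes.

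Other marker sums also moved with some of these groups. In the AP-2εCre cKO, compared with its 6 controls, the sums did not overlap for the 3 apical markers (972 to 1014 against 751 to 905 CPM), the 5 immune markers (177 to 188 against 140 to 166 CPM) and the 3 markers of motile ciliated cells (241 to 343 against 357 to 474 CPM). The 3 markers of main olfactory neurons summed to 177 to 221 CPM in the OMPCre heterozygotes, and to 81.7 to 117 CPM in Smad4flox/flox and 88.8 to 122 CPM in the cKO. The 5 gland markers summed to 48353 to 81337 CPM in the AP-2εCre cKO, against 80618 to 171047 CPM in its controls, overlapping at the edge. Their part in the levels of the SMAD genes was not tested.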

How the data were processed

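Stranded mRNA libraries were read from one end, and transcripts were quantified by the authors with Salmon 0.14.0 (per the labels and methods). The deposited files give, for each of 116248 transcripts, an estimated count, which need not be whole and is not normalized for library size, and a TPM value that the authors' software scaled by transcript length and library. The methods name a set of coding sequences, but the deposited lengths of all 38 SMAD transcripts equal the full annotated transcripts, untranslated parts included. The authors then used DESeq2 1.22.2.

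The GENCODE vM21 annotation of GRCm38 paired 116072 transcripts with a gene. The other 176, with at most 0.0324% of a library's counts, were left out. Estimated counts were summed per gene, rounded and tested with edgeR 4.0.16 (quasi-likelihood test, TMM, filterByExpr, two-sided) in R 4.3.3, and each cKO was set against the heterozygous and Smad4flox/flox controls of its line pooled, as in the study. Single transcripts were tested in the same way. TPM differences between genes used log2(TPM + 0.1), and 95% intervals use the SE and degrees of freedom of each gene's edgeR fit. DESeq2 1.42.0, other scalings and filters, length-scaled TPM, limma 3.58.1 on TPM, either kind of control alone, 1 fit of all 18 libraries, the form of the library names as a term, the replicate number as a block and leaving out each library were alternatives. Methods were tested on simulated data. Figures and tables used Python 3.11.15, numpy 2.4.6, pandas 2.3.3, scipy 1.17.1 and matplotlib 3.10.9.

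The members and the lists of regulators, targets and markers were chosen with earlier results of these data known. Named were the 8 members and their transcripts, list genes called or among the 3 of each list with the lowest unadjusted p in either cKO comparison, the nearest protein-coding neighbours of Smad4, and the 5 genes with the highest and the 5 with the lowest correlation with Smad4. Of the genes these rules give, 2 are not reported here. Foxh1 was named because it alone could not be tested. Total estimated counts per library ranged from 43385516 to 134042284 (median 63096714), and p-values measure the spread between these libraries.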

Additional observations from a re-analysis of the deposited data

Results flagged for a closer look

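The library of the AP-2εCre line with the title of a heterozygote and the genotype of a cKO was in no comparison, and 3 of the 8 SMAD genes were higher in it than in all 6 controls of that line. Of 17827 genes, 16.7% lay above all 6 controls in this library and 16.8% below, so such places are common in it. Smad2, at 32.3 CPM, lay just below the lowest control at 32.6 CPM. Smad4 was at 87.5 CPM, where the controls ran from 39.6 to 81.0 CPM, and it was also above all 18 other libraries. Smad3 was at 65.8 CPM, just above the highest control at 65.3 CPM. Smad9 was at 17.5 CPM, where the highest control had 17.3 CPM. These are values of 1 library, and no test was made. Among the 6 pooled controls of each line, no SMAD gene had a single library far from the other 5 by Dixon's 95% limit.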

How the results depend on the processing

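For 21 SMAD log2 fold changes (all 8 genes in both cKO comparisons and Smad4 in the others), other settings gave 410 values, none of them called, and the lowest adjusted p was the 0.0932 of Smad4 in the OMPCre line by DESeq2. There the log2 fold change of Smad4 kept its sign in every setting, from -0.54 to -0.28, with adjusted p from 0.0932 to 1, and from -0.39 to -0.29 without single libraries. In the AP-2εCre line Smad4 turned to 0.020 against the heterozygotes alone and 0.23 with limma on TPM, and ran from -0.25 to 0.17 without single libraries. It turned positive without Smad4flox/flox replicate 1, heterozygote replicate 2 or cKO replicate 3. Its difference between heterozygotes and Smad4flox/flox ran there from -0.58 to 0.00011, the highest being the value without Smad4flox/flox replicate 1. The cause was not tested for these or the following changes.

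Values near 0 also changed sign. In the AP-2εCre cKO, Smad1 was -0.0055 by DESeq2, -0.0058 with DESeq2's size factors, -0.042 against heterozygotes alone and -0.00059 with the 18 libraries in 1 fit. Smad2 was 0.0021 with a filter of 1 count in total, 0.0041 with the replicate block, 0.090 against Smad4flox/flox alone and 0.0042 with the library names as a term, and Smad5 was 0.044 against Smad4flox/flox alone. On TPM with limma, used for members other than Smad4 after seeing the data, Smad2 was 0.13 and Smad5 0.22 there, beside a median of 0.21 over all genes, and in the OMPCre cKO Smad3 was -0.15 and Smad7 -0.13. In the OMPCre cKO, length-scaled TPM gave -0.18 for Smad3 and -0.15 for Smad7, and heterozygotes alone gave -0.038 for Smad1 and 0.0042 for Smad6. Without single libraries the ranges in the AP-2εCre cKO were -0.025 to 0.043 for Smad1, -0.036 to 0.058 for Smad2 and -0.016 to 0.21 for Smad6. In the OMPCre cKO they were -0.013 to 0.086 for Smad1, -0.11 to 0.049 for Smad6 and -0.026 to 0.20 for Smad9.

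The number of genes called depended on the tool. DESeq2 called 309 genes in the AP-2εCre cKO (edgeR 7), 43 in the OMPCre cKO (edgeR 0), 168 and 159 between the controls of the AP-2εCre and OMPCre lines (edgeR 4 and 8), and 634 and 288 transcripts in the cKO of the 2 lines (edgeR 0 and 2). For the AP-2εCre cKO, edgeR called 4 genes from length-scaled TPM, 24 against Smad4flox/flox alone, 16 with the 18 libraries in 1 fit and 2 with the library names as a term. For the OMPCre cKO it called 2 with a filter of 10 counts in every library, 11 against heterozygotes alone, 15 with the 18 libraries in 1 fit and 1 with the library names as a term. Between controls it called 8 (filter of 1 count) and 2 (filter of 10 counts) in the AP-2εCre line, and 1 (filter of 10 counts) and 3 (length-scaled TPM) in the OMPCre line. Without single libraries the calls ran from 2 to 8 and 0 to 2 genes and from 0 to 8 and 0 to 19 transcripts in the AP-2εCre and OMPCre cKO, and from 3 to 28 and 0 to 15 genes between controls.

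Same-numbered libraries are different animals, and their deviations from the group means correlated from -0.339 to 0.206 in the AP-2εCre line and from 0.0354 to 0.565 in the OMPCre line, where other pairs ran from -0.240 to 0.305 and from -0.420 to 0.253, so not every pair passed a correlation of 0.1 and the numbers were not taken to pair animals. All 9 of the OMPCre correlations were above 0, with a mean of 0.260 (other pairs -0.126), and replicate 3 is the line-named library in each OMPCre group. With the replicate number as a block, 2 genes were called in the AP-2εCre cKO and 2 between the OMPCre-line controls. Smad4 then had -0.11 (adjusted p = 0.896, edgeR) in the AP-2εCre and -0.35 (adjusted p = 0.473, edgeR) in the OMPCre cKO.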

Other observations

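In the library with conflicting labels Smad1 (30.8 CPM), Smad5 (81.6 CPM), Smad6 (10.3 CPM) and Smad7 (12.2 CPM) lay within the range of the 6 AP-2εCre-line controls. Tfap2e, the gene that carries Cre in this line, was at 6.83 CPM in this library, where the heterozygotes had 5.4 to 8.9 CPM and the cKO 10.0 to 12.5 CPM. The value was not used to place the library in a group.

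With 3 libraries a group, a whole organ and an estimate that covers the entire transcript, the values bear on total Smad4 mRNA of all cells and not on the floxed exon or on the cells in which Cre acts. Protein and phosphorylation of SMADs were not measured in these files. The TPM order of the members leans on how reads were divided among short transcripts, and the order by CPM per kilobase is given beside it for that reason.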
